A study of Rattus norvegicus with 24 samples.

Results

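Aminoacyl-tRNA synthetases join each amino acid to its tRNA, and their RNA was followed here in PC12, a cell line grown from a rat tumour of the adrenal medulla (pheochromocytoma), over 24 libraries. The members are 37 gene symbols given as a list: 18 enzymes of the cytosol, 2 that serve both cytosol and mitochondria (Gars for glycine and Kars for lysine), 16 of the mitochondria, and the threonyl enzyme-like gene Tarsl2, which is kept apart. Counts were at hand for 35 of them, and all 35 were among the 9994 genes tested of 17055 listed. The mitochondrial enzymes Iars2 and Mars2 were not analysed here. One stable line expressed human α1ACT from the pcDNA3 vector, and the other carried the empty pcDNA3 vector. α1ACT is a fragment from the carboxy terminus, made from the message of CACNA1A, a calcium channel gene. Both lines were at passages 18 to 20, were grown in the same medium with horse and fetal bovine serum, and received no treatment per the labels. The 8 labelled groups, of 3 replicates each, are α1ACT and vector at 6 h, 24 h, 3 d and 10 d, and what the times were counted from is not stated. With 1 stable line of each kind, α1ACT cannot be told apart from any other difference between the lines. The labels do not tie the replicates to separate cultures. The p-values then cover no more than the spread between these libraries, which may be technical.

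The labels are open to doubt, and every result below depends on them. In 18 of 24 libraries the deposited file's own name gives another time or line than the label, and in 12 of these another line. The names call the vector line P and the α1ACT line Q11. The α1ACT groups labelled 6 h, 24 h, 3 d and 10 d have files named P 24 h, P 10 d, Q11 24 h and Q11 10 d. The vector groups labelled 6 h, 24 h, 3 d and 10 d have files named P 6 h, P 3 d, Q11 6 h and Q11 3 d. Groups are those of the labels throughout, and the grouping by file name is given beside them as a description. By the file names, α1ACT against vector at labelled 6 h or 3 d would be 24 h against 6 h within 1 line, and at labelled 24 h or 10 d it would be 10 d against 3 d within 1 line. The contrasts of labelled 3 d against 6 h, and of 10 d against 24 h, would be those of the lines.

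The libraries held 8679560 to 14486248 counts on genes (median 11663500.5). Levels are given as CPM, counts scaled to the same total of gene counts in each library, and the floor of 3 counts stood at 0.206 to 0.352 CPM. RNA of chromaffin markers was found in every library. Th stood at 4760 to 8640 CPM and Chgb at 8840 to 14900 CPM. The scarcest were Dbh at 27.2 to 49.7 CPM and Gata3 at 5.36 to 34.5 CPM. The defining fibroblast, immune and glial markers Col1a2, Ptprc and Sox10 were at 0 in all 24 libraries. The summed chromaffin markers ranged from 18600 to 28500 CPM and were highest in the groups labelled α1ACT 24 h (24500 to 28500) and α1ACT 10 d (26900 to 28500). That sum is carried by the abundant markers, and single markers went both ways. In α1ACT against vector, 3 of the 8 were higher and 3 lower at 24 h, and 4 higher and 2 lower at 10 d. These passed edgeR at an adjusted p under 0.05, as 55.5% and 58.9% of all genes did. The 4 epithelial markers moved with the groups as well in their sum, to which Krt8 and Epcam gave most. They summed to 924 to 1070 CPM in α1ACT and 1480 to 1800 CPM in vector at labelled 6 h, and to 920 to 1160 CPM in α1ACT and 1260 to 1720 CPM in vector at 3 d. At 24 h they summed to 652 to 669 CPM in α1ACT and 476 to 497 CPM in vector, and at 10 d to 677 to 734 CPM in α1ACT and 482 to 498 CPM in vector. Of the 4, 3 were lower and none higher in α1ACT at both 6 h and 3 d. At both 24 h and 10 d, 2 were higher and 1 lower. Over all genes 41.6% passed at 6 h, 55.5% at 24 h, 39.4% at 3 d and 58.9% at 10 d. Of reads assigned, ambiguous or outside genes, those in no annotated gene made up 52.3% to 52.9% in α1ACT and 50.5% to 51.2% in vector at 10 d, and 49% to 50% in α1ACT and 47.8% to 49.3% in vector at 6 h. The part of these shifts in the results was not tested. In bulk RNA of this kind, fewer cells of a type and less RNA per cell cannot be told apart.

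There are a pair of unrelated architectures of synthetase, class I and class II, and most amino acids have 1 gene for the cytosol and another for the mitochondrion. All of the mitochondrial enzymes are encoded in the nucleus and imported to charge the tRNAs of the mitochondrial genome. In the cytosol, Dars, Eprs, Iars, Kars, Lars, Mars, Qars and Rars are bound together with scaffold proteins in the multisynthetase complex, and Eprs carries the enzymes for glutamate and proline in 1 chain. When amino acids run short or the endoplasmic reticulum is stressed, the transcription factor ATF4 raises a set of genes for amino acid synthesis, uptake and charging, which is known to include many cytosolic synthetases. ATF4 binds, with a C/EBP partner, an element of the form TGATGNAA.

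The promoters that hold this element are shown here as sequence only. They were chosen for display with the wider spread of the cytosolic genes between the groups already known. Windows of 300 bases, from 250 before to 50 after the start of each gene, came from RefSeq on build GRCr8. They were available for 32 measured members, and none was at hand for Gars, Dars or Rars. The 8 letters TGATGNAA were searched on both strands. Aars, Cars, Iars, Mars, Nars, Tars and Yars held a match, and these are 7 of 17 cytosolic or dual windows (41.2%). None of the 14 mitochondrial windows held one, and 1332 of 33469 windows of all genes did (3.98%). In the lines below the match is in capitals, and TTGCATCA and TTTCATCA are the element read on the other strand.

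Aars, chr19:55908344-55908403, forward strand: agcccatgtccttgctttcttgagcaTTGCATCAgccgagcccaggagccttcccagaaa
Aars, chr19:55908465-55908524, forward strand: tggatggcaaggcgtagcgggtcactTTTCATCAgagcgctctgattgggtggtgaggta
Cars, chr1:208225320-208225378, reverse strand: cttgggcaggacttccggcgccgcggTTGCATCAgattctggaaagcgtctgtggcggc
Iars, chr17:15193643-15193702, reverse strand: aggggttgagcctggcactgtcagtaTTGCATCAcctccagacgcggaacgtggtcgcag
Mars, chr7:65023737-65023796, reverse strand: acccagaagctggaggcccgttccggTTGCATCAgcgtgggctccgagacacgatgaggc
Nars, chr18:60275763-60275822, reverse strand: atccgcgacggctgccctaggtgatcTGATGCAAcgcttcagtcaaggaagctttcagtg
Tars, chr2:62114796-62114855, reverse strand: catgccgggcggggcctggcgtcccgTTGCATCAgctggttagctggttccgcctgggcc
Yars, chr5:146820175-146820212, forward strand: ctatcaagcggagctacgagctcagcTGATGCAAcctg

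A match describes letters and shows no binding, and whether ATF4 had a part in these levels was not tested. The matches of Cars and Yars and the second of Aars lie after the start, from base 18, 39 and 10. The 7 genes form part of the 13 cytosolic or dual members with a window whose RNA was higher in the libraries labelled 24 h and 10 d, described below (53.8%). The others of the 13, Eprs, Sars, Wars, Lars, Qars and Farsb, were higher and held no match. The 4 with a window that were not higher, Kars, Hars, Vars and Farsa, held none either. They are few, and the share with a match among all genes that were higher was not counted.

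Levels of the cytosolic and dual enzymes were uneven between groups. The mean over all groups ranged from 113 to 885 CPM among the 20 cytosolic or dual genes, with a median of 235 CPM. Among the 14 mitochondrial genes it ranged from 4.66 to 64.0 CPM, with a median of 24.05 CPM. CPM carry no correction for gene length, so they rank libraries for a gene and not genes against each other. The ratio of the highest to the lowest group mean was above 2 for 13 of the 20 cytosolic or dual genes, with a median of 2.42 and a top of 4.71 for Cars, the cysteinyl enzyme. Of the 14 mitochondrial genes 1 exceeded 2, Nars2 at 2.42, and the median ratio was 1.38. The group labelled vector 10 d was highest for 15 of the 20 cytosolic or dual genes and for 2 of the 14 mitochondrial ones. Neither that ratio nor the highest group was counted over all tested genes, so these counts do not show the members to be unusual. Any difference among the 8 groups passed the test (edgeR's quasi-likelihood test, Benjamini-Hochberg adjusted p under 0.05 over all 9994 genes) for 20 of 20 cytosolic or dual and 10 of 14 mitochondrial genes, where 89.5% of all genes passed. The mitochondrial genes that did not pass were Ears2 (adjusted p = 0.082), Rars2 (0.164), Sars2 (0.151) and Yars2 (0.549), and Tarsl2 did not pass either (0.166). Their levels are low, at about 4 to 29 CPM per group, which limits how small a difference these libraries can show. Other mitochondrial genes passed the same test at like levels, among them Nars2 (mean 5.08 CPM, adjusted p = 5.33e-07) and Vars2 (28 CPM, 6.38e-10).

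To set the compartments side by side, the log2 CPM of each gene was taken as its difference from that gene's mean over the 8 groups, and averaged over the genes of a class. For the 18 cytosolic enzymes this mean was −0.38 ± 0.04 in the α1ACT group labelled 6 h and −0.30 ± 0.03 in vector (SD, n = 3 each, as in all that follow). At labelled 24 h it was 0.11 ± 0.11 in α1ACT and 0.53 ± 0.09 in vector. At labelled 3 d it was −0.43 ± 0.02 in α1ACT and −0.30 ± 0.03 in vector, and at labelled 10 d 0.13 ± 0.10 in α1ACT and 0.64 ± 0.03 in vector. The cytosolic class thus stood low in both lines at labelled 6 h and 3 d, high in vector at 24 h and 10 d, and between these in α1ACT at 24 h and 10 d. In the summed counts of the 18 genes, the same libraries held 4693 to 5619 CPM in α1ACT and 7327 to 8446 CPM in vector at 24 h, and 4866 to 5762 CPM in α1ACT and 8352 to 8685 CPM in vector at 10 d. By the file names, the mean deviation would be −0.30 in P and −0.30 in Q11 at 6 h, and −0.38 and −0.43 at 24 h. It would be 0.53 in P and 0.64 in Q11 at 3 d, and 0.11 and 0.13 at 10 d.

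The 14 mitochondrial enzymes moved less and in another order. Their mean deviation was 0.02 ± 0.01 in α1ACT and −0.20 ± 0.03 in vector at labelled 6 h, and 0.03 ± 0.02 in α1ACT and −0.20 ± 0.02 in vector at 3 d. At labelled 24 h it was 0.07 ± 0.02 in α1ACT and 0.11 ± 0.01 in vector, and at 10 d 0.07 ± 0.04 in α1ACT and 0.11 ± 0.03 in vector. The groups that stand lowest for the mitochondrial class are therefore the vector groups of 6 h and 3 d alone, whereas both lines were low there for the cytosolic class. By the file names, the mitochondrial mean would be −0.20 in P and −0.20 in Q11 at 6 h, and 0.02 and 0.03 at 24 h. It would be 0.11 in both at 3 d and 0.07 in both at 10 d. The dual pair split: their mean deviation lay between −0.26 and 0.25 over the groups, and the 2 genes went different ways, as given below. These class means are descriptions with no test.

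**Figure D1:**
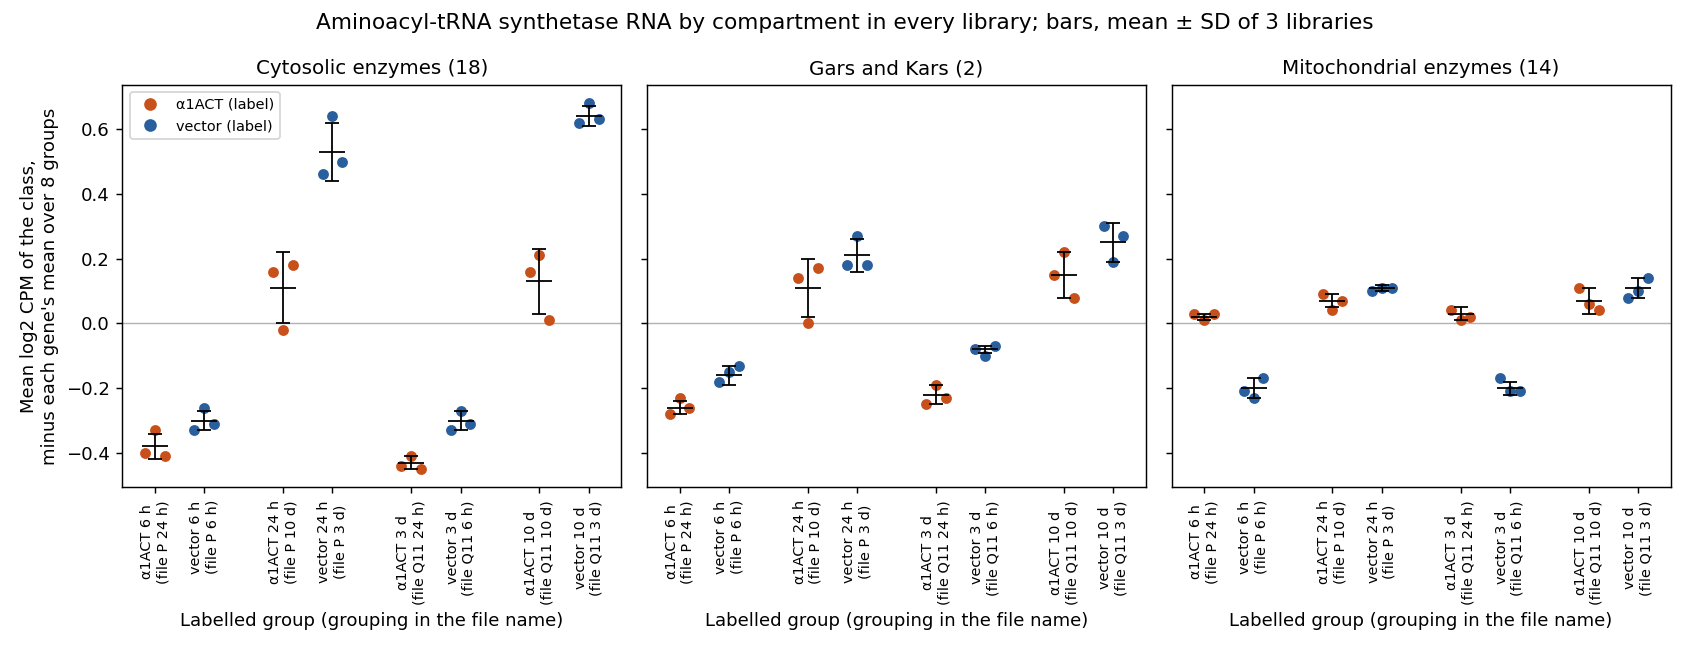
Mean log2 CPM of the cytosolic, dual and mitochondrial synthetases in every library, each gene taken relative to its mean over the 8 groups, by labelled group with the file-name grouping in brackets (points, libraries; bars, mean ± SD of 3). The cytosolic class reaches 0.53 and 0.64 in vector labelled 24 h and 10 d, against 0.11 and 0.13 in α1ACT, while the mitochondrial class stays between −0.20 and 0.11.

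**Figure D2:**
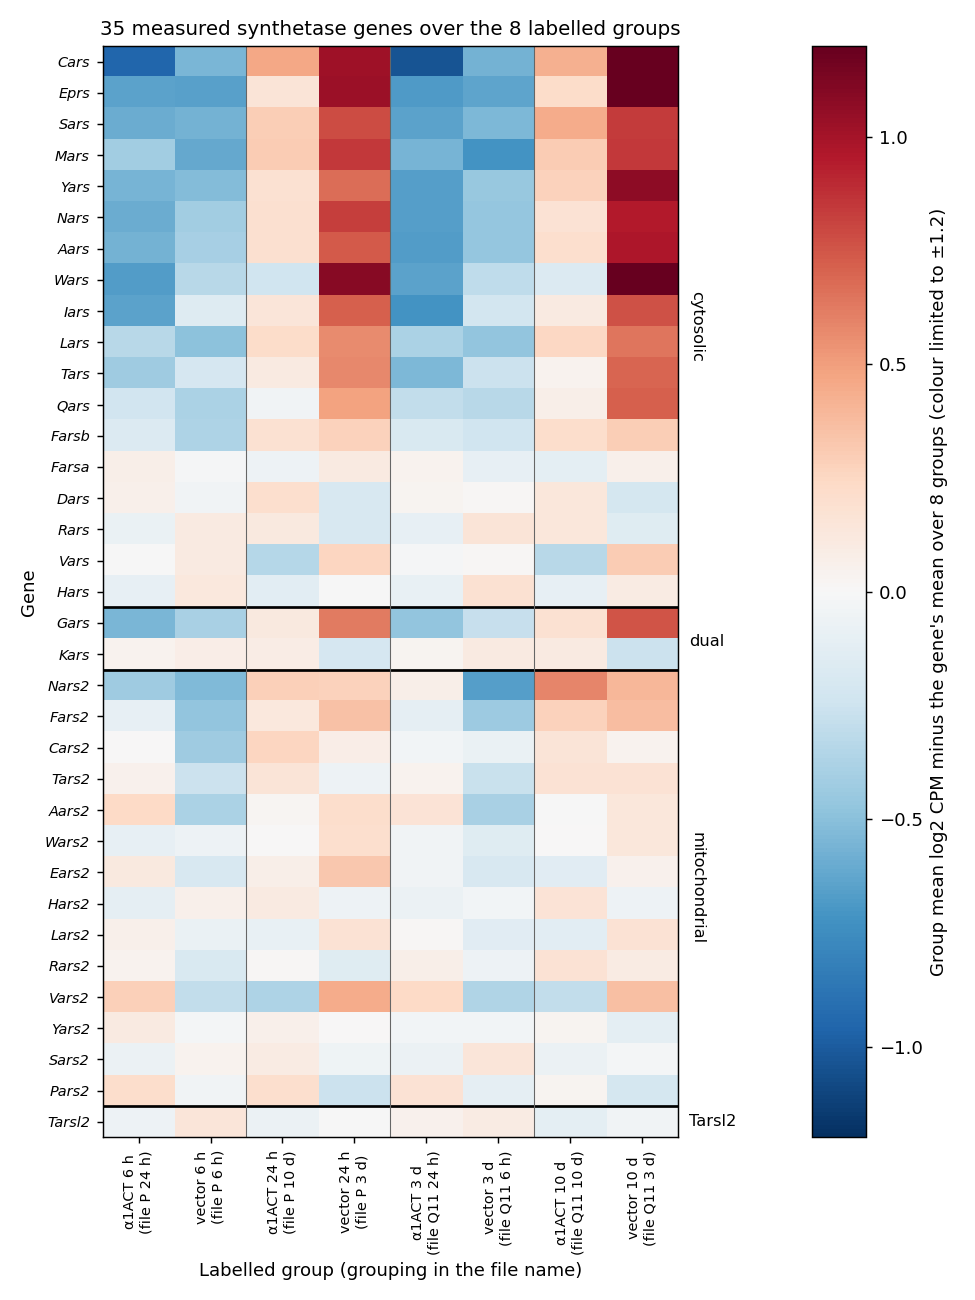
Group means of log2 CPM for the 35 measured genes, each relative to its own mean over the 8 labelled groups, with colour limited to ±1.2. Most cytosolic genes are red in the columns labelled 24 h and 10 d, more so in vector than in α1ACT, and Dars, Kars, Rars, Hars, Vars and Farsa do not share that pattern.

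In the comparison of the labelled lines, α1ACT minus vector, the cytosolic enzymes were lower in α1ACT at 24 h and 10 d and the mitochondrial ones were mixed. At labelled 24 h, 16 of the 20 cytosolic or dual genes were lower and 3 were higher, where 55.5% of all genes passed the test (28.8% lower, 26.6% higher). Of the 14 mitochondrial genes, 4 were lower and 3 higher. At labelled 10 d, 16 of 20 were lower and 3 higher, against 2 lower and 1 higher of the 14 mitochondrial genes, where 58.9% of all genes passed (29.4% lower, 29.5% higher). The 3 libraries of a line did not overlap those of the other for 19 of 20 and 10 of 14 genes at 24 h (60.4% of all genes), and for 20 of 20 and 3 of 14 at 10 d (63% of all genes). The median log2 difference was −0.48 at 24 h and −0.60 at 10 d for the cytosolic or dual genes, 0.04 and −0.02 for the mitochondrial genes, and −0.02 and 0.01 for all genes tested.

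At labelled 6 h and 3 d the differences of the cytosolic or dual genes were smaller. The median difference of the mitochondrial genes was larger there, at 0.25 and 0.16, than at 24 h and 10 d (0.04 and −0.02). The share of genes called was near that of all genes in both classes at 3 d. At 6 h, 7 of the 20 cytosolic or dual genes were lower and 3 higher, and 5 of the 14 mitochondrial genes were higher and 1 lower, where 41.6% of all genes passed (21.2% lower, 20.5% higher). At 3 d, 8 of 20 were lower and none higher, and 5 of 14 were higher and none lower, where 39.4% of all genes passed (19.4% lower, 19.9% higher). The libraries of the lines did not overlap for 15 of 20 and 7 of 14 genes at 6 h (51.8% of all genes), and for 16 of 20 and 7 of 14 at 3 d (52.5%). The median log2 difference was −0.07 at 6 h and −0.15 at 3 d for the cytosolic or dual genes, and 0.25 and 0.16 for the mitochondrial genes. Averaged over the 4 labelled times, 15 of 20 cytosolic or dual genes were lower and 2 higher, and 7 of 14 mitochondrial genes were higher and none lower, where 66.3% of all genes passed (32.7% lower, 33.6% higher). The shares of called mitochondrial genes at 24 h, 3 d, 10 d and on average were below those of all genes. Some of these counts moved when a single library, or every library of 1 replicate number, was left out: the alternatives gave 5 to 11 called cytosolic or dual genes at 6 h, 5 to 10 at 3 d, and 3 to 8 called mitochondrial genes at 24 h. Calls over all genes moved too, at 6 h from 4162 to 2580 without replicate number 1.

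**Figure D3:**
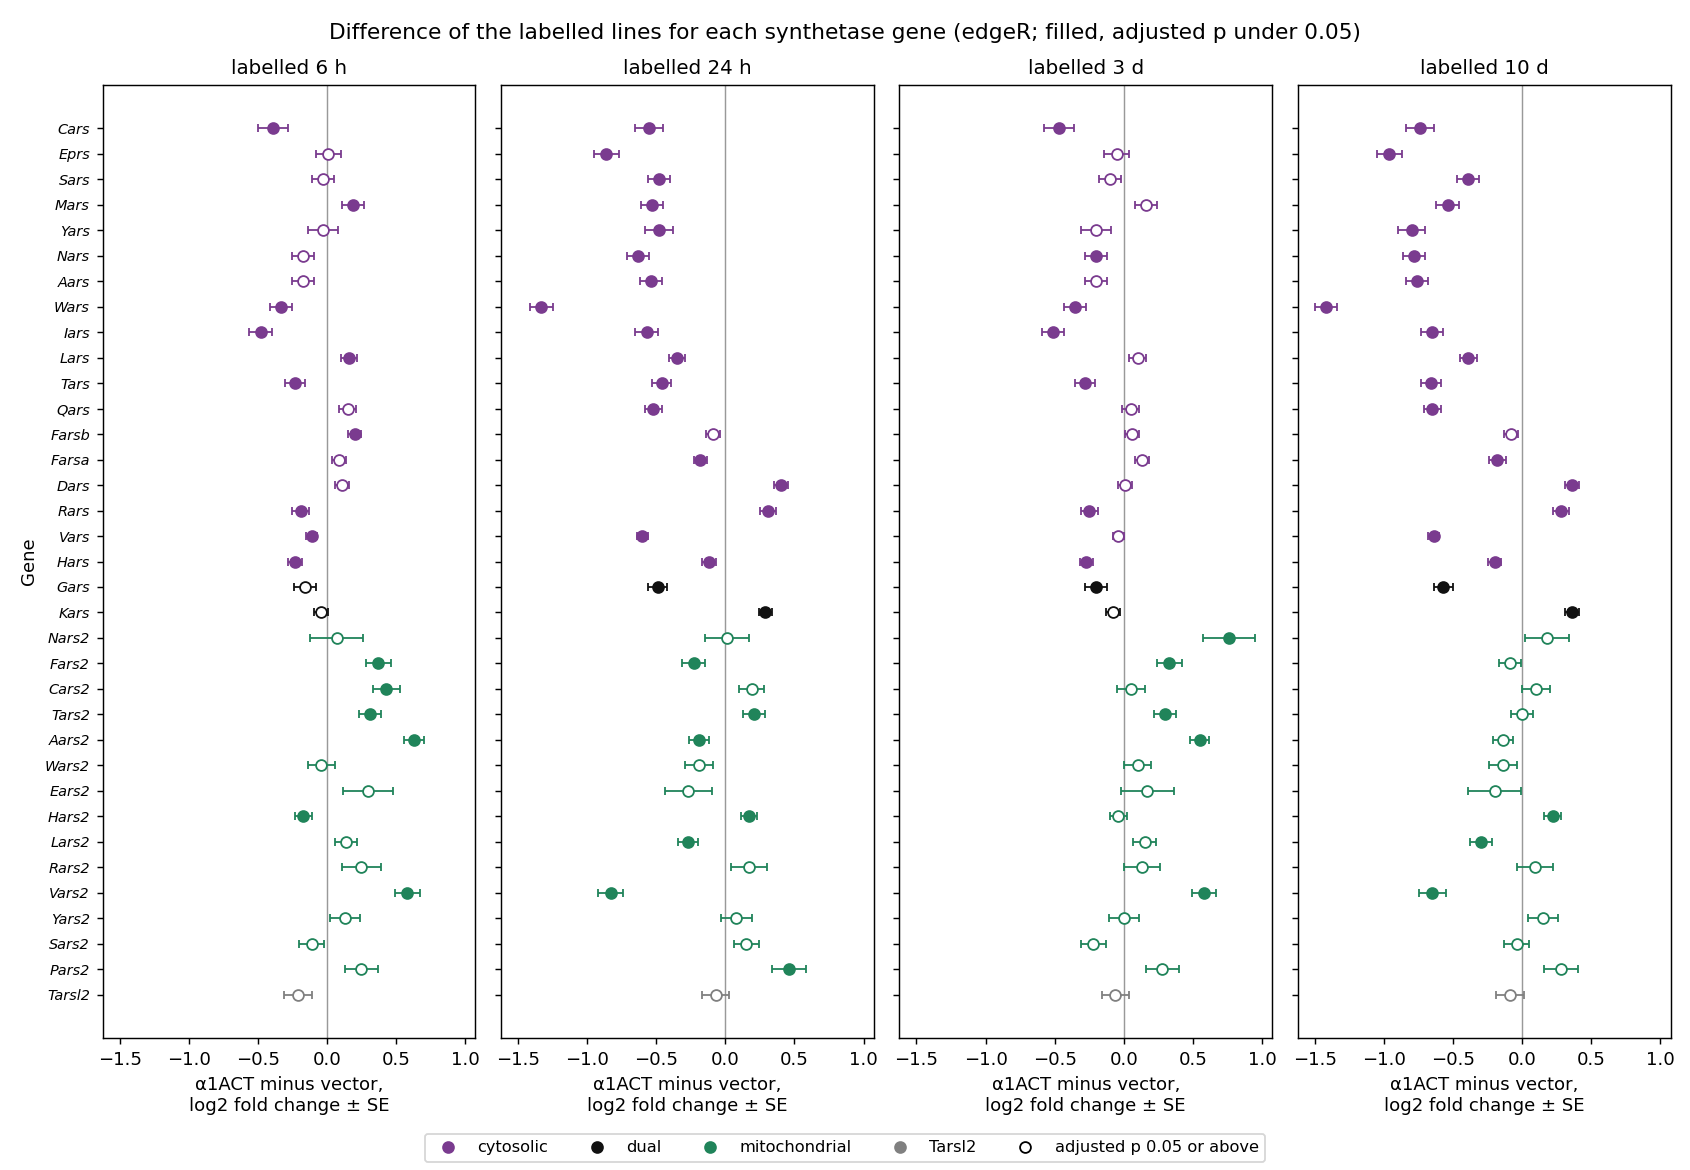
Log2 fold change of α1ACT over vector with its SE for each gene at the 4 labelled times (filled, adjusted p under 0.05). At 24 h and 10 d nearly all cytosolic genes lie left of 0, down to −1.33 and −1.42 for Wars, and Dars, Kars and Rars lie right of it.

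Wars, the tryptophanyl enzyme which is also known to be induced by interferon gamma, was the member furthest below vector in α1ACT at labelled 24 h and 10 d. It stood at 216, 181 and 228 CPM in α1ACT and 479, 612 and 486 CPM in vector labelled 24 h. At labelled 10 d it had 220, 239 and 199 CPM in α1ACT and 565, 616 and 577 CPM in vector. No α1ACT library reached a vector library, and the log2 differences were −1.33 (SE 0.08, adjusted p = 9.18e-13, edgeR) and −1.42 (SE 0.08, adjusted p = 3.27e-13). Wars was lower at the other times also, with 151, 156 and 156 CPM in α1ACT and 189, 194 and 198 CPM in vector at 6 h (log2 difference −0.33, SE 0.08, adjusted p = 0.00238). At 3 d it had 154, 160 and 155 CPM in α1ACT and 194, 211 and 191 CPM in vector (−0.35, SE 0.08, adjusted p = 0.00168).

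Eprs, the bifunctional glutamyl-prolyl enzyme, differed between the lines at 24 h and 10 d and not detectably at 6 h and 3 d. At labelled 24 h it had 934, 707 and 964 CPM in α1ACT and 1440, 1760 and 1530 CPM in vector, and at 10 d 938, 1000 and 775 CPM in α1ACT and 1760, 1790 and 1760 CPM in vector. The groups did not overlap at either time, and the log2 differences were −0.86 (SE 0.09, adjusted p = 1.18e-08) and −0.96 (SE 0.09, adjusted p = 1.61e-09). At 6 h Eprs had 489, 514 and 480 CPM in α1ACT and 467, 536 and 473 CPM in vector (adjusted p = 0.959), and at 3 d 475, 479 and 486 CPM in α1ACT and 476, 506 and 505 CPM in vector (adjusted p = 0.72). The α1ACT libraries replicate 2 at 24 h and replicate 3 at 10 d were the lowest of their groups for Eprs as for most cytosolic genes; without the first the difference of Eprs at 24 h was −0.73, and without the second that at 10 d was −0.86.

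Cars, Mars and Nars, which charge cysteine, methionine and asparagine, were lower by less than Wars and Eprs at both of these times. Cars had 191, 162 and 194 CPM in α1ACT and 255, 291 and 259 CPM in vector at labelled 24 h, and 184, 213 and 143 CPM in α1ACT and 304, 311 and 291 CPM in vector at 10 d. Its log2 difference was −0.55 (SE 0.10, adjusted p = 2.43e-05) at 24 h and −0.74 (SE 0.10, adjusted p = 3.47e-07) at 10 d. Cars was also lower at 6 h, with 61, 79.8 and 64.9 CPM in α1ACT and 90.7, 88.1 and 90.9 CPM in vector, and at 3 d, with 63.3, 68.5 and 60.4 CPM in α1ACT and 86.1, 91.7 and 88.7 CPM in vector. Those calls had adjusted p = 0.00466 and 0.00109, and the one at 6 h was lost without replicate number 1 (0.124).

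Mars showed the opposite sign early. It had 245, 256 and 250 CPM in α1ACT and 208, 226 and 222 CPM in vector at labelled 6 h, and 228, 234 and 223 CPM in α1ACT and 206, 212 and 193 CPM in vector at 3 d. The difference at 6 h sat at the threshold (log2 0.19, adjusted p = 0.0468) and did not pass with DESeq2 (0.0513), and that at 3 d did not pass (0.16, adjusted p = 0.1). At 24 h Mars had 451, 346 and 452 CPM in α1ACT and 562, 649 and 598 CPM in vector, and at 10 d 422, 448 and 373 CPM in α1ACT and 614, 586 and 611 CPM in vector. It was lower in α1ACT at both times, by log2 −0.53 (SE 0.08, adjusted p = 1.25e-06) and −0.54 (SE 0.08, adjusted p = 9.33e-07). Nars had 456, 363 and 457 CPM in α1ACT and 617, 732 and 631 CPM in vector at 24 h, and 435, 457 and 365 CPM in α1ACT and 730, 708 and 720 CPM in vector at 10 d. Its differences were −0.63 (SE 0.08, adjusted p = 1.19e-07) and −0.78 (SE 0.08, adjusted p = 3.64e-09). At 6 h and 3 d it ranged from 226 to 251 CPM in α1ACT and from 261 to 294 CPM in vector.

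Iars, the isoleucyl enzyme, was the member furthest below vector in α1ACT at the early times and differed by a like amount at all 4. At labelled 6 h it had 140, 143 and 143 CPM in α1ACT and 198, 204 and 193 CPM in vector (log2 difference −0.48, SE 0.08, adjusted p = 5.28e-05). At 3 d it had 127, 139 and 137 CPM in α1ACT and 173, 206 and 192 CPM in vector (−0.51, SE 0.08, adjusted p = 3.57e-05). At 24 h and 10 d it ranged from 208 to 270 CPM in α1ACT and from 343 to 412 CPM in vector, with differences of −0.57 and −0.65. Iars is thus among the genes for which the 2 lines were apart in every pair of labelled groups. Besides Iars, Wars and Cars, the genes lower in α1ACT at labelled 6 h were Hars and Tars (both −0.23), Rars (−0.19) and Vars (−0.11), and the higher ones were Farsb (0.20), Mars and Lars (0.16). At 3 d the others that were lower were Tars (−0.28), Hars (−0.27), Rars (−0.25), Gars and Nars (both −0.20). Several of these small early calls, among them those of Lars, Rars, Tars and Vars at 6 h and of Gars and Nars at 3 d, were lost when single libraries were left out.

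**Figure D4:**
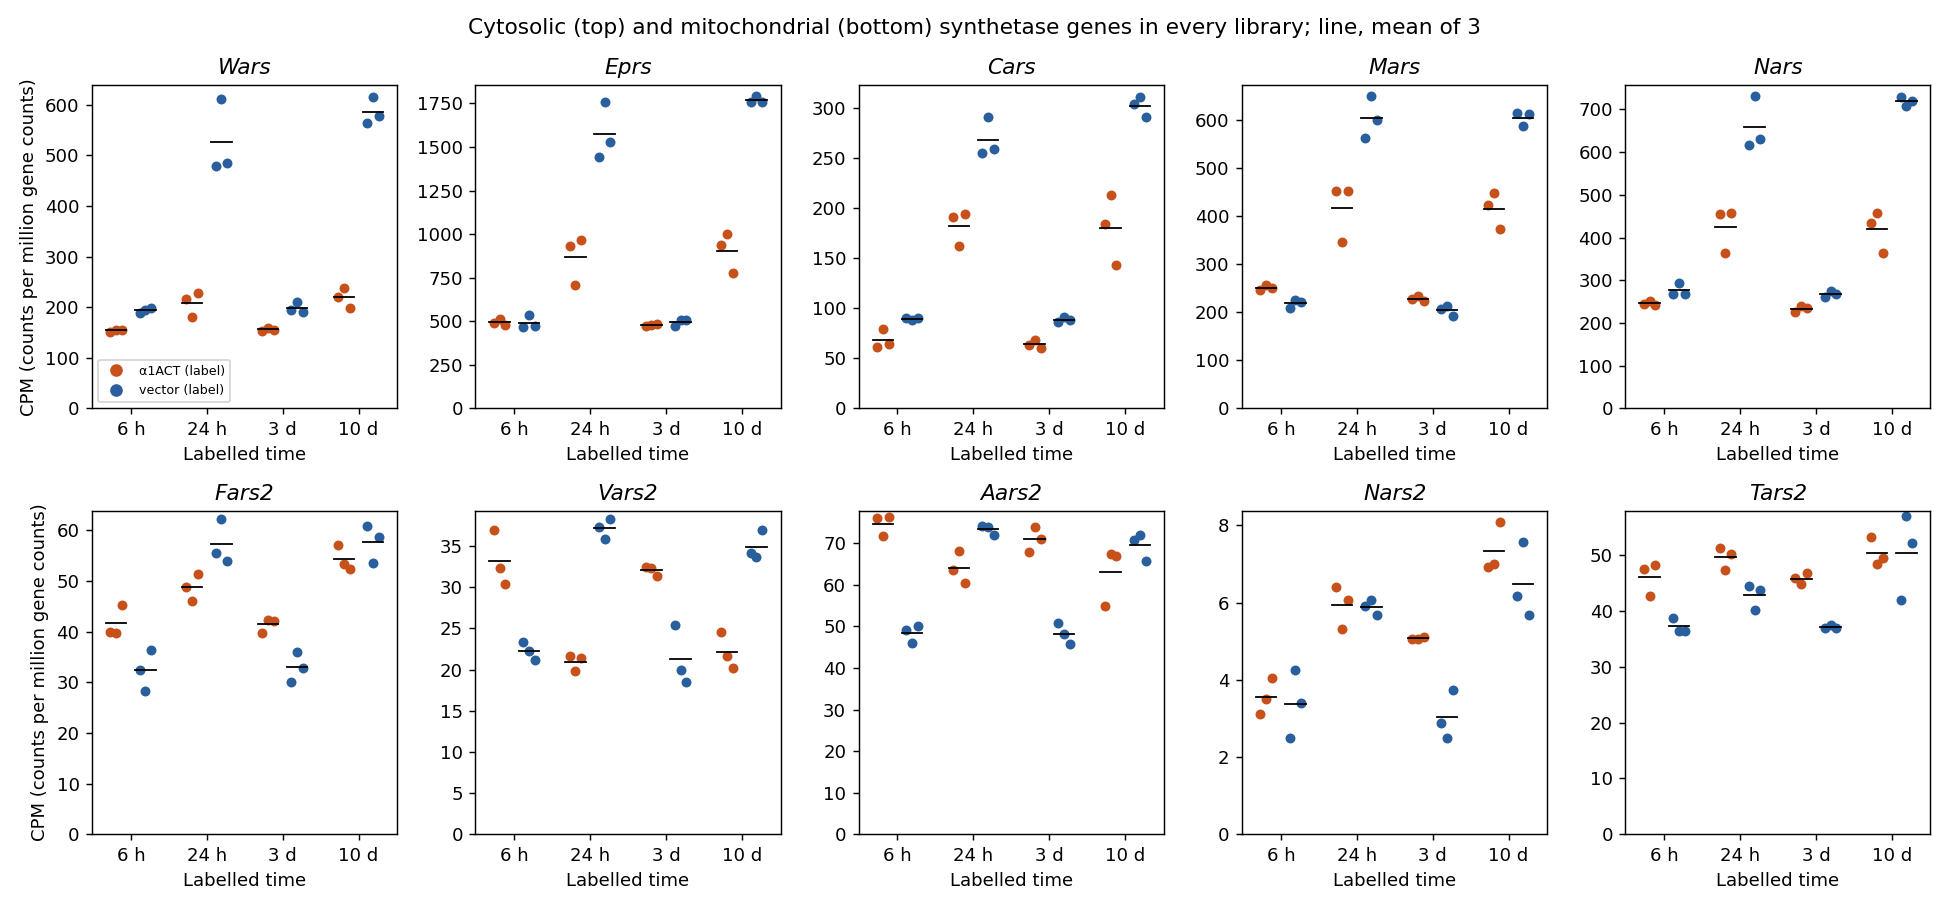
CPM in every library of Wars, Eprs, Cars, Mars and Nars (top) and of Fars2, Vars2, Aars2, Nars2 and Tars2 (bottom), by labelled time, with α1ACT left of vector and a line at the mean of 3. The cytosolic genes peak in vector at 24 h and 10 d (Wars 479 to 616 CPM), and Vars2 is high in α1ACT at 6 h and 3 d and in vector at 24 h and 10 d.

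The remaining cytosolic or dual genes that were lower in α1ACT than in vector at labelled 24 h and 10 d were so by less than 1 on the log2 scale. At 10 d these were Yars (−0.80), Aars (−0.76), Tars (−0.66), Qars (−0.65), Vars (−0.64), Gars (−0.57), Sars (−0.39), Lars (−0.39), Hars (−0.20) and Farsa (−0.18), which charge tyrosine, alanine, threonine, glutamine, valine, glycine, serine, leucine, histidine and, with Farsb, phenylalanine. At 24 h the same genes gave −0.48, −0.54, −0.46, −0.52, −0.60, −0.49, −0.48, −0.35, −0.12 and −0.18. Farsb, the other subunit of the phenylalanyl enzyme, did not pass at either time (−0.09 and −0.08). The small differences of Farsa were lost at 10 d without replicate number 1 (0.102) or 3 (0.115), and at 24 h likewise (0.113 and 0.119).

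Dars, Kars and Rars, which charge aspartate, lysine and arginine and all sit in the multisynthetase complex, were the 3 that went the other way. Dars had 146, 142 and 132 CPM in α1ACT and 102, 106 and 110 CPM in vector at labelled 24 h, and 141, 129 and 131 CPM in α1ACT and 105, 102 and 106 CPM in vector at 10 d. Its log2 differences were 0.40 (SE 0.05, adjusted p = 9.79e-08) and 0.36 (SE 0.05, adjusted p = 7.52e-07), with no overlap of the groups. Kars had 279, 291 and 280 CPM in α1ACT and 225, 231 and 240 CPM in vector at 24 h, and 282, 286 and 294 CPM in α1ACT and 235, 202 and 233 CPM in vector at 10 d. It was higher in α1ACT by 0.29 (SE 0.05, adjusted p = 1.69e-05) and 0.36 (SE 0.05, adjusted p = 6.05e-07). Rars averaged 204 ± 12.1 CPM in α1ACT and 165 ± 10.9 CPM in vector at 24 h, and 206 ± 4.33 CPM in α1ACT and 171 ± 1.68 CPM in vector at 10 d (SD, n = 3 each). Its differences were 0.31 (adjusted p = 1.74e-04) and 0.28 (adjusted p = 5.3e-04).

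The complex as a whole therefore did not move one way. Of its 8 members 5 were lower and 3 higher in α1ACT at both labelled 24 h and 10 d, and of the 12 cytosolic or dual genes outside it 11 were lower and none higher at both times, where 55.5% and 58.9% of all genes passed. At labelled 6 h and 3 d neither Dars nor Kars passed the test. Dars had 124 to 132 CPM in α1ACT and 114 to 120 CPM in vector at 6 h, and Kars had 264 to 282 CPM in α1ACT and 275 to 287 CPM in vector. Rars was lower there, at 178 ± 14.7 CPM in α1ACT and 203 ± 12.4 CPM in vector at 6 h (SD, n = 3 each; log2 difference −0.19, adjusted p = 0.0169), a call lost without vector replicate 2 (0.131). The catalytic classes were alike in direction, with a median at 10 d of −0.65 over the 9 class I cytosolic genes and −0.30 over the 10 of class II with the dual genes counted in.

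Gars and Kars supply both compartments from 1 gene each, and they split. Gars averaged 230 ± 32.7 CPM in α1ACT and 323 ± 26.7 CPM in vector at labelled 24 h, and 239 ± 26.3 CPM in α1ACT and 355 ± 8 CPM in vector at 10 d (SD, n = 3 each). Gars was thus lower in α1ACT than in vector, as most cytosolic genes were, whereas Kars was higher, as given above. From labelled 6 h to 24 h Gars was higher in both lines, from 143 to 230 CPM in α1ACT and 160 to 323 CPM in vector. Kars had 274 and 283 CPM in α1ACT and 281 and 232 CPM in vector at those times.

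Among the mitochondrial enzymes, Vars2 for valine showed the clearest change and turned its sign between the labelled times. It had 37, 32.3 and 30.4 CPM in α1ACT and 23.3, 22.2 and 21.1 CPM in vector at 6 h, and 32.5, 32.3 and 31.4 CPM in α1ACT and 25.4, 20 and 18.5 CPM in vector at 3 d. At 24 h it had 21.7, 19.8 and 21.4 CPM in α1ACT and 37.3, 35.9 and 38.3 CPM in vector, and at 10 d 24.6, 21.7 and 20.2 CPM in α1ACT and 34.2, 33.7 and 36.9 CPM in vector. The groups did not overlap at any of the 4 times. Vars2 was higher in α1ACT by log2 0.58 at 6 h (SE 0.09, adjusted p = 2.3e-05) and 0.58 at 3 d (SE 0.09, adjusted p = 2.91e-05). It was lower by −0.83 at 24 h (SE 0.09, adjusted p = 3.25e-08) and −0.65 at 10 d (SE 0.10, adjusted p = 1.91e-06).

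Aars2, for alanine, was the member furthest above vector in α1ACT at 6 h. It had 76, 71.7 and 76.3 CPM in α1ACT and 49.1, 46 and 50.2 CPM in vector (log2 difference 0.63, SE 0.07, adjusted p = 7.69e-08). At 3 d it had 67.9, 74 and 70.9 CPM in α1ACT and 50.9, 48.1 and 45.8 CPM in vector (0.55, SE 0.07, adjusted p = 6.6e-07). Both pairs of groups were fully apart. At 24 h the levels were 63.6, 68.2 and 60.4 CPM in α1ACT and 74.1, 73.8 and 72 CPM in vector, a small difference (−0.19, adjusted p = 0.0142) that was lost without α1ACT replicate 3 (0.0799). At 10 d they were 55, 67.5 and 67 CPM in α1ACT and 70.7, 71.9 and 65.8 CPM in vector, and the groups overlapped.

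Fars2 for phenylalanine, Tars2 for threonine and Nars2 for asparagine were higher in α1ACT at one or both of the early labelled times. Fars2 had 39.9, 39.8 and 45.3 CPM in α1ACT and 32.4, 28.3 and 36.4 CPM in vector at 6 h (log2 difference 0.37, SE 0.09, adjusted p = 0.00127). At 3 d it had 39.8, 42.3 and 42.2 CPM in α1ACT and 30.1, 36 and 32.8 CPM in vector (0.33, SE 0.09, adjusted p = 0.00347), a call lost without replicate number 1 (0.0852). At 24 h it had 48.8, 46.1 and 51.4 CPM in α1ACT and 55.6, 62.2 and 54 CPM in vector, and at 10 d 57.2, 53.4 and 52.3 CPM in α1ACT and 60.9, 53.6 and 58.6 CPM in vector. The first of these passed with −0.23 (adjusted p = 0.0173) and was lost without vector replicate 2 (0.103) or α1ACT replicate 2 (0.0764), and the second did not pass (adjusted p = 0.361).

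Nars2 was scarce. It had 5.07, 5.05 and 5.1 CPM in α1ACT and 2.87, 2.48 and 3.73 CPM in vector at 3 d. No member was further above vector in α1ACT at that time (log2 difference 0.76, SE 0.19, adjusted p = 0.00225). At 6 h it had 3.12, 3.5 and 4.05 CPM in α1ACT and 2.48, 4.25 and 3.4 CPM in vector, and the groups overlapped (adjusted p = 0.794). In the groups labelled 24 h and 10 d it ranged from 5.31 to 8.1 CPM in α1ACT and from 5.69 to 7.57 CPM in vector, also overlapping. Tars2 had 47.4, 42.7 and 48.2 CPM in α1ACT and 38.8, 36.4 and 36.4 CPM in vector at 6 h, and 45.8, 44.8 and 46.7 CPM in α1ACT and 36.9, 37.4 and 36.9 CPM in vector at 3 d. It was higher by 0.31 (adjusted p = 0.00327) and 0.30 (adjusted p = 0.00421), and both calls were lost without replicate number 3 (0.111 and 0.0861). At 24 h it had 51.2, 47.3 and 50.2 CPM in α1ACT and 44.4, 40.1 and 43.8 CPM in vector, and at 10 d 53.2, 48.4 and 49.5 CPM in α1ACT and 41.9, 56.9 and 52.2 CPM in vector, where the groups overlapped. The difference at 24 h passed (0.21, adjusted p = 0.0241) and was lost without vector replicate 2 (0.102).

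Pars2, the mitochondrial prolyl enzyme, was the member furthest above vector in α1ACT at labelled 24 h. It had 13.9, 13.9 and 14.4 CPM in α1ACT and 11, 9.43 and 10.2 CPM in vector (log2 difference 0.46, SE 0.12, adjusted p = 0.00162). It did not pass at 6 h, 3 d or 10 d, where it ranged from 10.4 to 15.5 CPM in α1ACT and from 10.1 to 12.7 CPM in vector. Apart from Hars2, the other mitochondrial calls were few: Cars2 was higher at 6 h (0.43, adjusted p = 0.00144), and Lars2 was lower at 24 h (−0.27, adjusted p = 0.00312) and 10 d (−0.30, adjusted p = 0.00169). Without replicate number 1, Cars2 at 6 h (adjusted p = 0.0582) and Lars2 at 24 h (0.16) no longer passed. Wars2 stayed within 16.1 to 24.9 CPM in all 24 libraries and did not pass in the comparison of the lines at any time. Tarsl2, at 12.1 to 14.7 CPM in α1ACT and 13 to 16.3 CPM in vector at 10 d, did not pass in any comparison of the lines.

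Hars and Hars2, the cytosolic and mitochondrial histidyl enzymes, are neighbours read in opposite directions from a shared stretch of promoter. Their starts lie 144 bases apart, and their windows share 243 bases. The window of Hars2 is printed here for that shared stretch, with the part between the starts in capitals, and it holds no match to the element.

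Hars2, chr18:28672606-28672905, forward strand: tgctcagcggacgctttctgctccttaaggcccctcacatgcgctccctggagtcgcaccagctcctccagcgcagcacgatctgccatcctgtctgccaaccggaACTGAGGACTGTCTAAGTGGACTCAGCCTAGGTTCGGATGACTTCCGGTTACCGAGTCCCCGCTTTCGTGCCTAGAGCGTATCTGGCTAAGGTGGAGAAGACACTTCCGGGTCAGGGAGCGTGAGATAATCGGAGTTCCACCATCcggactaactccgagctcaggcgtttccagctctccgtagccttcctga

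Hars had 168, 167 and 163 CPM in α1ACT and 176, 186 and 178 CPM in vector at labelled 24 h, and 166, 165 and 175 CPM in α1ACT and 196, 198 and 187 CPM in vector at 10 d. Hars2 had 65.8, 67.3 and 69.7 CPM in α1ACT and 56.7, 64 and 60.1 CPM in vector at 24 h, and 67, 73.4 and 70.3 CPM in α1ACT and 60.1, 60.3 and 60.2 CPM in vector at 10 d. At these times Hars was lower in α1ACT (−0.12 and −0.20) and Hars2 higher (0.17 and 0.22, adjusted p = 0.0132 and 0.0017). At 6 h both were lower in α1ACT, Hars by −0.23 and Hars2 by −0.17 (adjusted p = 0.0194), and at 3 d Hars was lower (−0.27) and Hars2 did not pass (−0.04). The call of Hars2 at 6 h and those of both genes at 24 h were lost when single libraries were left out. The strand setting of the counting is not given, so reads from the stretch where the 2 genes abut cannot be assigned with certainty.

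Taking the enzymes by amino acid, 15 pairs of a cytosolic and a mitochondrial gene could be formed, with Eprs set against both Ears2 and Pars2, and Farsa and Farsb both against Fars2. The log2 difference of α1ACT minus vector was lower for the cytosolic than for the mitochondrial gene in 13 pairs at labelled 6 h, 11 at 24 h, 14 at 3 d and 12 at 10 d. At 10 d Wars had −1.42 and Wars2 −0.14, and Nars −0.78 and Nars2 0.18. Eprs had −0.96, with Ears2 at −0.20 and Pars2 at 0.28. Vars and Vars2 were lower in α1ACT by like amounts at 10 d (−0.64 and −0.65), and Farsb and Fars2 had −0.08 and −0.09. The pairs share genes and libraries, and these counts are descriptions with no test.

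**Figure D5:**
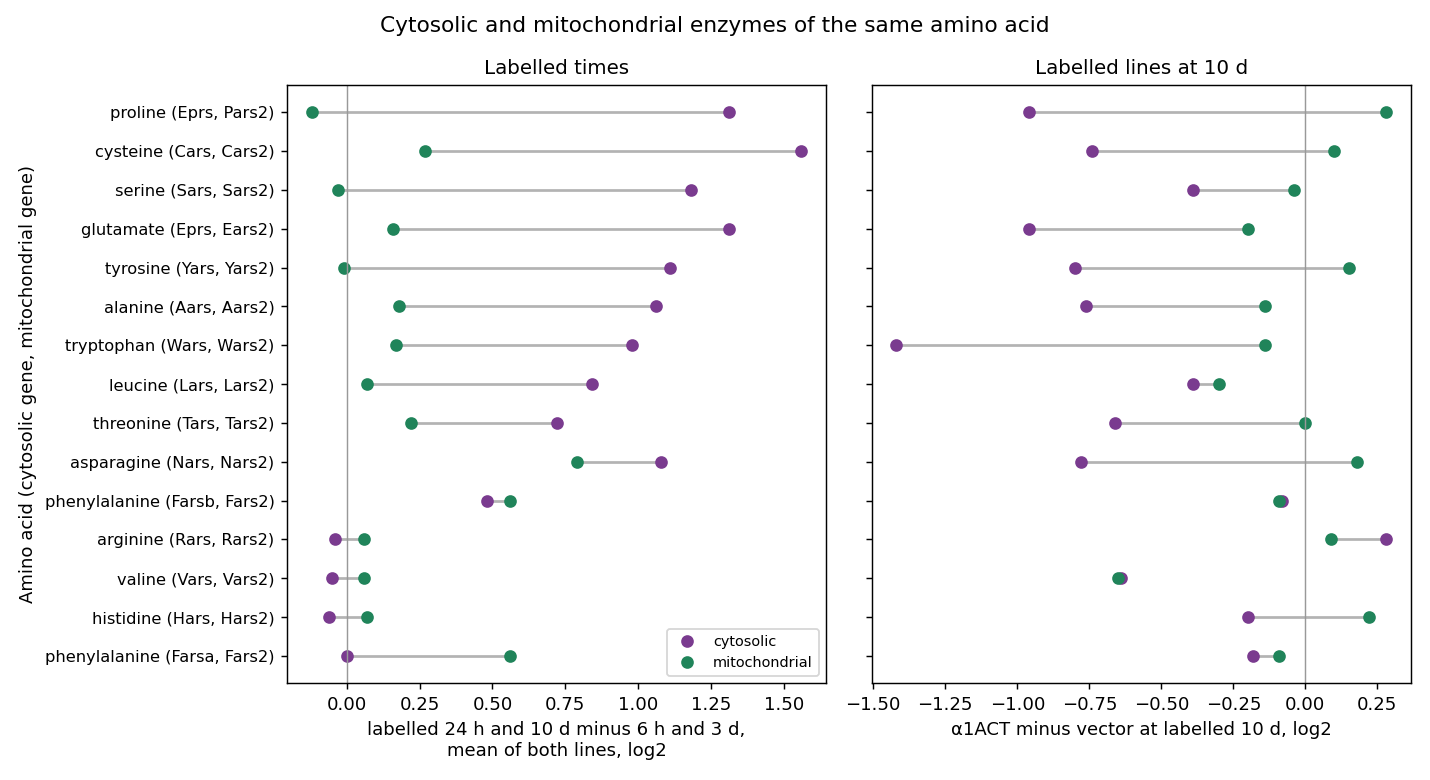
Log2 differences of the cytosolic and mitochondrial gene for each amino acid, for labelled 24 h and 10 d minus 6 h and 3 d over both lines (left) and for α1ACT minus vector at labelled 10 d (right). On the left the cytosolic gene lies right of its mitochondrial counterpart in 10 of 15 pairs, and on the right it lies left of it in 12 of 15.

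Between labelled times within a line, the cytosolic enzymes were higher at 24 h than at 6 h and at 10 d than at 3 d, in both lines and more so in vector. In vector at 24 h against 6 h, 16 of 20 cytosolic or dual genes were higher and 4 lower, and 9 of 14 mitochondrial genes were higher, where 61.5% of all genes passed (31.6% higher, 29.9% lower). In α1ACT the counts were 16 higher and 2 lower of 20, and 4 higher and 2 lower of 14, where 44.1% passed (21.7% higher, 22.4% lower). At 10 d against 3 d they were 16 higher and 3 lower of 20 and 7 higher of 14 in vector (64.2% of all genes, 33.2% higher and 31% lower), and 15 higher and 2 lower of 20 and 3 higher and 2 lower of 14 in α1ACT (44.6%, 21.8% higher and 22.8% lower). The median log2 difference of the cytosolic or dual genes was 0.54 in α1ACT and 0.95 in vector for 24 h against 6 h, and 0.61 in α1ACT and 1.05 in vector for 10 d against 3 d. For the mitochondrial genes it was 0.05 in α1ACT and 0.26 in vector, and 0.06 in α1ACT and 0.28 in vector.

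The rise was largest for Eprs in vector and for Cars in α1ACT. Eprs rose by log2 0.81 in α1ACT (SE 0.09, adjusted p = 9.99e-08) and 1.68 in vector (SE 0.09, adjusted p = 5.94e-14) for 24 h against 6 h, and by 0.92 in α1ACT and 1.83 in vector for 10 d against 3 d. Cars rose by 1.41 in α1ACT (SE 0.10, adjusted p = 5.53e-11) and 1.58 in vector (SE 0.10, adjusted p = 8.67e-13), and by 1.49 in α1ACT and 1.76 in vector. Wars, by contrast, rose by 0.44 in α1ACT and 1.44 in vector, and by 0.49 in α1ACT and 1.56 in vector. Kars fell in vector, by 0.28 at 24 h and 0.36 at 10 d, and did not pass in α1ACT (0.05 and 0.08). Rars fell in vector (−0.30 at both times) and rose in α1ACT (0.20 and 0.23). Vars2 went the other way round, with −0.67 and −0.53 in α1ACT and 0.74 and 0.71 in vector.

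Taking both lines together, the mean of labelled 24 h and 10 d against that of 6 h and 3 d gave 14 higher and 3 lower of the 20 cytosolic or dual genes, and 7 higher and none lower of the 14 mitochondrial genes, where 71.0% of all genes passed (34.9% higher, 36.1% lower). The median log2 difference was 0.85, 0.12 and 0.00 for the cytosolic or dual, the mitochondrial and all tested genes. Cars rose most (1.56, SE 0.05, adjusted p = 7.35e-19), followed by Eprs (1.31), Sars (1.18), Mars (1.16), Yars (1.11) and Nars (1.08). The measured mitochondrial counterparts of these had 0.27 for Cars2, 0.16 for Ears2, −0.12 for Pars2, −0.03 for Sars2, −0.01 for Yars2 and 0.79 for Nars2.

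The difference of the labelled lines itself changed between the labelled times. By the file names, that change would set 10 d against 3 d beside 24 h against 6 h, with P and Q11 pooled. Tested as the line effect at 24 h and 10 d minus that at 6 h and 3 d, 14 of 20 cytosolic or dual genes were lower and 3 higher, and 6 of 14 mitochondrial genes were lower and 2 higher, where 64.3% of all genes passed (33.7% lower, 30.7% higher). The values lowest were Vars2 (−1.32, SE 0.09, adjusted p = 6.56e-12) and Wars (−1.04, SE 0.08, adjusted p = 3.48e-11). Rars (0.51), Kars (0.39) and Dars (0.32) were the cytosolic or dual genes above 0 that passed. Cars did not pass (−0.22, adjusted p = 0.0628).

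Contrasts that the file names would make those of the lines showed little in these genes. For labelled 3 d against 6 h no member passed in either line, where 1.06% of all genes passed in α1ACT (0.8% higher, 0.26% lower) and 1.47% in vector (1.14% higher, 0.33% lower) with edgeR. At an unadjusted p under 0.05 there was 1 mitochondrial gene in α1ACT and 1 gene of each class in vector, and DESeq2 called none in either line. For labelled 10 d against 24 h no member passed in α1ACT with edgeR or DESeq2, where 4.62% of all genes passed (2.21% higher, 2.41% lower), and none had an unadjusted p under 0.05. In vector 2 cytosolic genes passed, where 7.44% of all genes did (4.29% higher, 3.15% lower): Qars, with 381, 370 and 359 CPM at 10 d and 298, 336 and 308 CPM at 24 h (log2 difference 0.24, SE 0.06, adjusted p = 0.0195), and Yars, with 185, 283 and 215 CPM at 10 d and 163, 179 and 169 CPM at 24 h (0.42, SE 0.10, adjusted p = 0.0117). Both calls depended on single libraries, Yars on vector replicate 2 at 10 d (0.24 and adjusted p = 0.132 without it) and Qars among others on vector replicate 1 at 24 h (0.109). DESeq2 called 3 cytosolic or dual genes there. No mitochondrial gene passed in that comparison with edgeR or DESeq2, and 1 had an unadjusted p under 0.05. The mean of labelled 3 d and 10 d against that of 6 h and 24 h, by the file names the average contrast of the lines, gave no call among the 20 or the 14 with edgeR or DESeq2, where 15.6% of all genes passed (8.25% higher, 7.37% lower). At an unadjusted p under 0.05 it gave 4 of the 20 and 2 of the 14.

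Other genes of the same pathways, from lists given in full to the fit, moved with the cytosolic enzymes to different degrees. All 23 tested genes of the amino acid response list were higher in the libraries labelled 24 h and 10 d over both lines, where 34.9% of all genes were higher. Their median log2 difference was 1.73. The list was chosen with earlier results of these data known. The 2 with the smallest p were Chac1, which degrades glutathione, at 103 CPM against 4.68 CPM (log2 difference 4.39, SE 0.08), and Ddit3, the stress transcription factor CHOP, at 235 CPM against 38.8 CPM (2.62, SE 0.05, both adjusted p = 3.14e-24). Between the labelled lines 20 of the 23 were lower in α1ACT at 24 h and 19 at 10 d, none was higher, and the medians were −0.71 and −0.81, where 28.8% and 29.4% of all genes were lower. Sesn2, a stress-induced regulator of mTORC1, had 78.4 CPM in α1ACT and 185 CPM in vector at 10 d (−1.23, SE 0.07, adjusted p = 8.61e-13), and Slc7a1, a carrier of cationic amino acids, had 212 CPM in α1ACT and 516 CPM in vector (−1.28, SE 0.09). At 6 h the list had 2 higher and 8 lower, and at 3 d 3 higher and 7 lower, in all 43.5% of the list at each time, near the 41.6% and 39.4% of all genes.

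Lists of partners gave mixed counts. Over all genes 41.6% passed at labelled 6 h, 55.5% at 24 h, 39.4% at 3 d and 58.9% at 10 d, and several of these lists lie near those shares. Of 9 scaffold and tRNA partners, 6 were higher and 1 lower in α1ACT at labelled 24 h and again at 10 d. Aarsd1, which clears wrongly charged alanyl-tRNA, was higher (0.56 and 0.60), and Xpot, the exporter of tRNA from the nucleus, was lower (−0.68 and −0.65). Of 7 cytosolic elongation factors 2 were higher and 3 lower at 24 h, and 3 higher and 1 lower at 10 d. Eef1b2, a subunit of the exchange factor for eEF1A, was higher (0.54 and 0.66), and Eef2, which moves the ribosome along the message, was lower (−0.40 and −0.21). Of 12 mitochondrial translation factors 6 were higher and none lower at 6 h, 3 higher and 1 lower at 24 h, 4 higher and 1 lower at 3 d, and 6 higher and none lower at 10 d.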

How the data were processed

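Total RNA was depleted of ribosomal RNA and made into stranded libraries, per the labels' protocols. The authors deposited read counts, whole numbers for each gene symbol without normalization, followed by summary lines that were not used as genes. The submitters' processing notes name FastQC 0.11.2, TopHat2 2.0.10, Picard 1.117, edgeR and HTSeq 0.5.4p5, with build rn5. Annotation and strand setting of the counting were not given in the sources used here. Of reads assigned, ambiguous or outside genes, 47.8% to 52.9% lay outside annotated genes. For every 100 of these reads there were 73.7 to 103 alignments of reads with several placements (95.5 to 103 in the α1ACT 10 d libraries). Floors of 3 counts cover counting error only.

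All genes that passed edgeR's filterByExpr (10 counts, 15 in total, by group), 9994 of 17055, were fitted with the quasi-likelihood test of edgeR 4.0.16 in R 4.3.3, with TMM factors of 0.981 to 1.02, 1 coefficient for each of 8 labelled groups and 16 residual degrees of freedom. Benjamini-Hochberg adjustment ran over all tested genes, with a threshold of 0.05. CPM are relative to TMM-scaled gene counts, and log2 CPM use a prior count of 2. The fit was tested on simulated data. Replicates of a group were more unlike than sampling noise allows (chi-square per degree of freedom 1.99 to 11.4), so none was treated as a duplicate.

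Values in every library are given for the 5 cytosolic or dual and the 5 mitochondrial members with the smallest p in the joint test. They are also given for the members furthest above and below vector in α1ACT at each time. Hars, Hars2, Qars and Yars were added after their values were seen. Partner genes were the 2 with the smallest p of a list and comparison. Alternatives were DESeq2 1.42.0, other scaling, no filter, a replicate block, only the groups compared, and leaving out libraries. Of the member symbols, 36 matched RefSeq (18 through synonyms), and promoter windows are RefSeq's on build GRCr8. The members and lists were chosen with earlier results of these data known.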

Additional observations from a re-analysis of the deposited data

Results flagged for a closer look

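The line effect, α1ACT minus vector, differed between labelled 24 h and 10 d and labelled 6 h and 3 d for 17 of the 20 cytosolic or dual genes and 8 of the 14 mitochondrial genes, by an interaction term in edgeR with adjusted p under 0.05. Over all genes 64.3% passed, so the mitochondrial share of 57.1% lies below that of all genes, and DESeq2 called 5 of the 14. All values that follow are that difference of line effects on the log2 scale. Among the cytosolic or dual genes below 0 it was −1.04 for Wars, −0.89 for Eprs, −0.72 for Mars, −0.68 for Qars, −0.55 for Vars, −0.52 for Nars, −0.52 for Yars and −0.50 for Lars. Smaller ones were −0.46 for Aars, −0.37 for Sars, −0.35 for Gars, −0.30 for Tars, −0.29 for Farsa and −0.21 for Farsb. The cytosolic or dual genes above 0 were Rars at 0.51, Kars at 0.39 and Dars at 0.32.

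Among the mitochondrial genes it was −1.32 for Vars2, −0.76 for Aars2, −0.51 for Fars2, −0.47 for Ears2, −0.43 for Lars2 and −0.20 for Tars2, and it was 0.30 for Hars2 and 0.22 for Sars2. Ears2 and Sars2 did not pass the joint test of the 8 groups, and Sars2 (adjusted p = 0.039) was lost with DESeq2 (0.056) and in 14 of the 24 fits that left out a single library. By the file names this term would compare the later with the earlier step in time within a line, and the cause was not tested.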

How the results depend on the processing

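Over 560 pairs of a member and a comparison, 254 were called, and 197 of these were never lost under any alternative run. No direction of a called pair turned round. With only the groups compared in the fit, 1 cytosolic or dual gene was called in vector at 10 d against 24 h, where the full fit called 2. With DESeq2, 5 mitochondrial genes were called for the change of the line effect, where edgeR called 8. Leaving out libraries gave the following ranges of called genes. Cytosolic or dual genes: line at 6 h 5 to 11 (10 with all), line at 3 d 5 to 10 (8), vector 10 d against 24 h 0 to 9 (2), α1ACT 10 d against 24 h 0 to 5 (0), and 3 d and 10 d against 6 h and 24 h 0 to 3 (0). Mitochondrial genes: line at 24 h 3 to 8 (7), line at 10 d 3 to 5 (3), line average 4 to 8 (7), α1ACT 24 h against 6 h 2 to 5 (6), α1ACT 10 d against 3 d 3 to 6 (5), vector 10 d against 24 h 0 to 1 (0), and change of the line effect 5 to 9 (8). In that last comparison 1 mitochondrial gene was called higher, in place of 2, in 16 settings. Calls over all tested genes moved in such fits as well. For the line at 6 h they were 4162 with all libraries, and 2580, 3985 and 2637 without replicate number 1, 2 or 3. For α1ACT 10 d against 24 h they were 462 with all libraries, and 0, 754 and 24 without number 1, 2 or 3. Without α1ACT replicate 2 at 24 h the cytosolic or dual genes gave 15 lower and 3 higher at that time, and without α1ACT replicate 3 at 10 d they gave 16 lower and 3 higher. Nothing in the labels pairs the replicate numbers, and 32 of 84 same-numbered pairs had a correlation of deviations over 0.1, short of the rule that every pair should. The data give a hint of pairing all the same: 18 of 24 libraries were closest to their own number, and for number 2 the correlation was over 0.1 in 21 of 28 pairs, with a median of 0.175. With the replicate block, counts differed in 4 cases, all upward: 9 in place of 8 cytosolic or dual genes for the line at 3 d, 18 in place of 17 for the change of the line effect, 4 in place of 3 mitochondrial genes for the line at 10 d, and 10 in place of 9 in vector at 24 h against 6 h. Other scalings moved the median of all genes by at most 0.048 on the log2 scale. Mitochondrial genes of a few CPM are limited by depth.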
